A study of Homo sapiens with 9 samples.

Results

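The kinesin motor genes were followed in A375P cells, a long-established melanoma line of human origin, through inhibition of the pathway from mutant BRAF to MEK. The genes were taken by name: every row with exactly 1 gene symbol of the form KIF or KIFC plus its number, with the brightest row on average kept where a gene had several. This gave 37 kinesin genes of 17047 genes in all, and 33 of them passed the filter on dim genes and were tested. By textbook role, 10 were mitotic, 14 were transport kinesins (13 tested) and 13 had other roles (10 tested). KIF20A, KIF23, KIF4A, KIF4B and KIFC2 share their rows with other genes and are not analysed here.

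The cells had received the solvent DMSO, the MEK inhibitor PD184352 at 1 µM, or the RAF inhibitor PLX4720 at 0.4 µM, for 2, 6 or 24 h. All 9 arrays were of the same line, grown in medium with serum, and there was 1 array for each treatment and time. The design text speaks of triplicates, but the sources used here do not say whether a deposited column stands for 1 array or for an average, and each column is called an array below. Levels are log2(intensity + 1), and a change is a difference between such levels, so that the change of a dim gene is understated.

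Kinesins are motor proteins that bind microtubules and use ATP to move along them or to take them apart. In dividing cells a specialised set builds the spindle, moves chromosomes and completes cytokinesis, and the transcripts of that set rise in G2 and mitosis. Between divisions other kinesins carry vesicles, organelles and protein complexes towards the cell periphery. In melanocytes and melanoma cells such transport also carries pigment granules and their cargo.

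Median intensities per array lay between 98.96 and 102.4, and the 99th percentile was lower on the inhibitor arrays (1550 to 1654) than on the DMSO arrays (1681 to 1754). Among all genes tested, 0.0704% were called lower at 2 h, 2.74% at 6 h and 19.2% at 24 h. Of 6 genes of the MAPK response, all 6 were called lower at 6 h and all 6 at 24 h, with median changes of −2.40 and −2.98. At 2 h all 6 were below DMSO (median −1.22) and limma called SPRY4 (−1.94, SE 0.25), but not DUSP6 (−2.88, SE 0.56) or SPRY2 (−2.44, SE 0.51). The melanocyte regulators MITF and SOX10 stood at 9.43 to 10.15 and 9.95 to 10.22 on the DMSO arrays, while TYRP1, at 5.12 to 5.25 there and 6.78 to 7.07 on the inhibitor arrays of 24 h, was left out as dim. Of markers of other cell types, the leukocyte gene PTPRC (3.67 to 3.73 on the DMSO arrays) and the endothelial gene PECAM1 (5.13 to 5.18) were left out as dim. The leukocyte gene CD14 (6.77 to 7.09) and the endothelial genes VWF (7.68 to 7.95) and CDH5 (6.35 to 6.48) passed the filter. So did the fibroblast genes COL1A1 (7.38 to 7.49), COL1A2, COL3A1 and LUM and the keratinocyte gene KRT14 (7.53 to 7.81). None of these passing genes was called at any time. The melanocyte gene MLANA, at 6.25 to 6.66 on the DMSO arrays, read below COL1A1, KRT14 and VWF.

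At 24 h, 9 of 10 mitotic kinesins fell with the inhibitors against DMSO, and none rose, with a median log2 change of −1.50. Among all 12785 genes tested, 19.2% fell and the median change was −0.01. Each value is the mean of the PD184352 and the PLX4720 array minus the DMSO array of the same time. The limma test behind it takes its spread from the difference between both compounds, since no treatment had a replicate, and p-values therefore do not cover the spread between cultures. KIF11, the motor that pushes the spindle poles apart, had the largest change among the 33 kinesins, at −1.88 (SE 0.11, adjusted p = 4.3e-06), or 3.69-fold lower.

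KIF11 levels at 2, 6 and 24 h were 10.29, 10.56 and 10.23 with DMSO, 10.15, 10.52 and 8.35 with PD184352 and 10.21, 10.23 and 8.35 with PLX4720. Both inhibitor arrays at 24 h thus lay 1.80 below the lowest of the other 7 arrays, and nearly on top of each other. KIF15, a second spindle motor that can stand in for KIF11, read 8.34, 8.53 and 8.47 with DMSO, 8.22, 8.43 and 6.79 with PD184352 and 8.39, 8.42 and 7.02 with PLX4720. Its change at 24 h was −1.57 (SE 0.11, adjusted p = 8.37e-06), and the lowest of the other 7 arrays was 1.20 above both. KIFC1, a minus-end motor that focuses spindle poles and clusters extra centrosomes, read 9.43, 9.53 and 9.35 with DMSO, 9.29, 9.55 and 7.99 with PD184352 and 9.43, 9.67 and 8.19 with PLX4720. Its change at 24 h was −1.26 (SE 0.11, adjusted p = 2.26e-05), with 6 h arrays that were level with or just above DMSO.

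The motors that act on chromosomes and at the plus ends of microtubules showed the same late step. For KIF18A, which shortens kinetochore microtubules and aligns chromosomes, the levels were 7.97, 8.33 and 8.07 with DMSO, 7.82, 8.38 and 6.41 with PD184352 and 7.92, 8.18 and 6.45 with PLX4720. That is a change of −1.64 (SE 0.10, adjusted p = 4.71e-06) at 24 h, and neither inhibitor stood apart from DMSO at 6 h. The microtubule depolymerase KIF2C, which corrects faulty attachments at centromeres, read 9.73, 9.96 and 9.64 with DMSO, 9.58, 9.95 and 8.12 with PD184352 and 9.80, 9.96 and 8.31 with PLX4720. Here the 24 h change was −1.42 (SE 0.11, adjusted p = 1.37e-05), and all 7 other arrays lay between 9.58 and 9.96. KIF22, a chromokinesin that pushes chromosome arms away from the poles, was at 9.27, 9.32 and 9.13 with DMSO, 9.20, 9.39 and 7.98 with PD184352 and 9.25, 9.34 and 8.29 with PLX4720. With −0.99 (SE 0.12, adjusted p = 0.000158) it moved less than most of the list, and PD184352 took it further (−1.15) than PLX4720 (−0.84).

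KIF18B, which restrains astral microtubules, was the called mitotic kinesin with the smallest change, −0.87 (SE 0.10, adjusted p = 9.6e-05). Its levels were 9.51, 9.53 and 8.99 with DMSO, 9.26, 9.51 and 8.07 with PD184352 and 9.34, 9.38 and 8.18 with PLX4720. The DMSO array of 24 h itself differed from that of 6 h by −0.53, and against the DMSO array of 6 h the change was −1.40. Both inhibitor arrays at 24 h were below all 7 others in either case.

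Kinesins of cytokinesis fell as well. KIF14, which brings citron kinase to the midbody, read 9.81, 10.01 and 9.82 with DMSO, 9.49, 9.70 and 8.03 with PD184352 and 9.62, 9.79 and 8.14 with PLX4720. It was at −1.74 (SE 0.10, adjusted p = 2.82e-06) at 24 h, and it was the mitotic kinesin with an unadjusted p below 0.05 at 2 h (−0.26) and at 6 h (−0.26), neither of which passed adjustment. KIF20B, a kinesin-6 motor of late mitosis, read 8.40, 8.68 and 8.59 with DMSO, 8.39, 8.64 and 6.81 with PD184352 and 8.43, 8.34 and 6.95 with PLX4720. Its change was −1.71 (SE 0.12, adjusted p = 7.65e-06) at 24 h.

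KIF2B, a depolymerase related to KIF2C, was the exception. It stood at 6.59, 6.58 and 6.70 with DMSO, 6.85, 6.62 and 6.65 with PD184352 and 6.66, 6.65 and 6.71 with PLX4720, and its change at 24 h was −0.02 (SE 0.10, adjusted p = 0.905). All 9 arrays lay within 6.58 to 6.85, low in the range of all genes, at the 33.4th percentile of mean level. The plot of mitotic kinesins by time shows this flat panel beside 9 that step down.

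**Figure D1:**
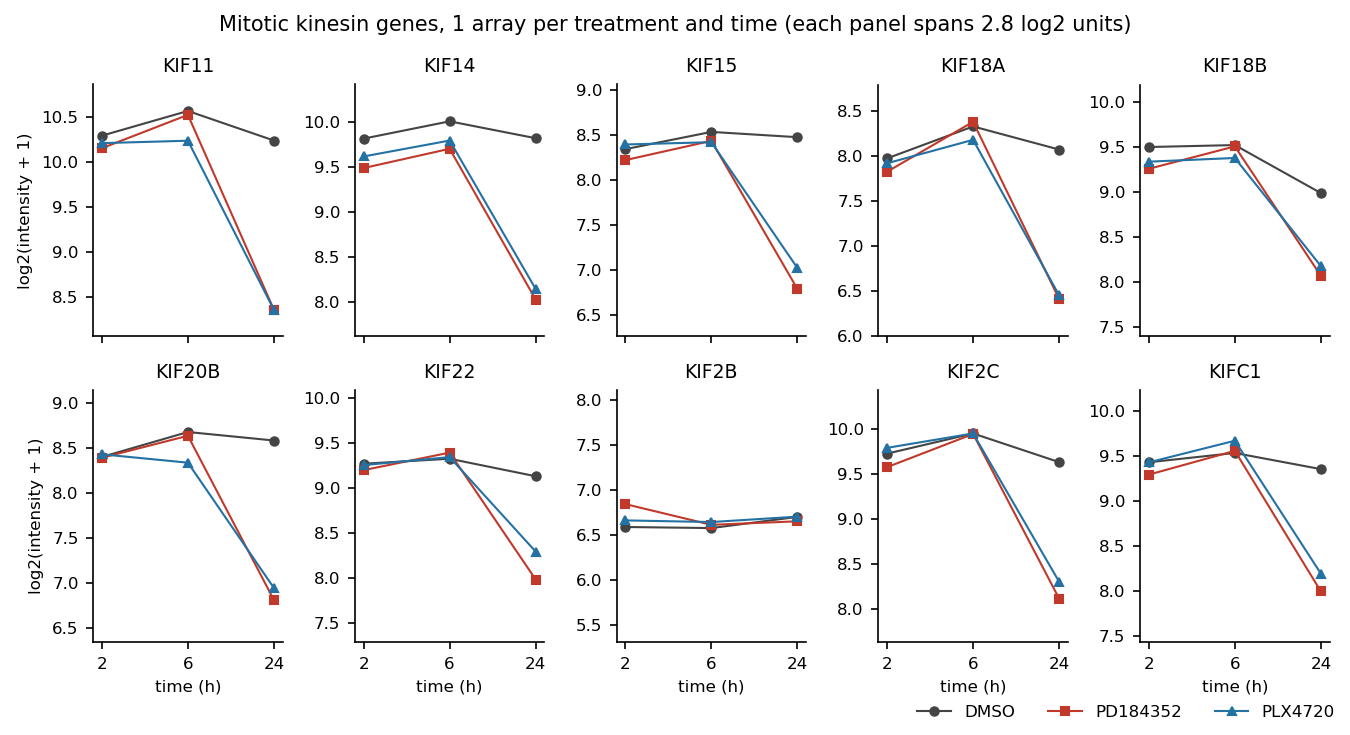
Level of the 10 tested mitotic kinesins as log2(intensity + 1), vertical axis, at 2, 6 and 24 h, spaced evenly on the horizontal axis. Each point is 1 array, with DMSO in grey circles, PD184352 in red squares and PLX4720 in blue triangles. In 9 panels both inhibitor points at 24 h lie below the other 7 points. KIF2B stays between 6.58 and 6.85.

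In 9 of 10 mitotic kinesins both 24 h inhibitor arrays lay below all 7 other arrays, against 3 of 13 transport kinesins, 3 of 10 other kinesins and 22.6% of all genes tested. They lay above all 7 others in 0 of 10 mitotic, 3 of 13 transport and 2 of 10 other kinesins, and in 19.9% of all genes. Single-array differences from DMSO reached 2-fold lower for 8 of 10 mitotic kinesins with PD184352 and for 7 of 10 with PLX4720, where 3.15% and 2.39% of all genes did. None of the 13 transport and none of the 10 other kinesins reached 2-fold lower with either compound. At 2 and 6 h no mitotic kinesin did, beside 0.0391% of all genes with each compound at 2 h, and 0.422% with PD184352 and 0.375% with PLX4720 at 6 h. The median mitotic difference at 24 h was −1.59 with PD184352 and −1.39 with PLX4720.

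Before 24 h the mitotic kinesins were close to DMSO. At 2 h and at 6 h limma called 0 of 33 kinesins, with 2 and 5 of them at an unadjusted p below 0.05. Among all genes 0.086% were called at 2 h (0.0704% lower and 0.0156% higher) and 3.28% at 6 h (2.74% lower and 0.54% higher). The mitotic medians were −0.06 at both times, and the 10 genes ranged from −0.26 to 0.16 at 2 h and from −0.26 to 0.08 at 6 h. On the DMSO arrays 9 of 10 mitotic kinesins were higher at 6 h than at 2 h (median difference 0.19), and 9 of 10 were lower at 24 h than at 6 h (median difference −0.19). Of all 12785 genes 5597 were lower at 6 h than at 2 h (median 0.0268) and 6513 at 24 h than at 6 h (median −0.0031). From 6 to 24 h the median difference of the mitotic kinesins was −1.66 on the PD184352 arrays and −1.44 on the PLX4720 arrays. For all genes these medians were 0.0057 and 2e-04.

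The change with inhibitor differed between the 3 times for 12 of 33 kinesins by limma's F-test, where 14.9% of all genes were called. These were the 9 mitotic kinesins that fell at 24 h, with KIF21A, KIF2A and KIF13A. For KIF11 the 24 h change minus the 2 h change was −1.77 (SE 0.16), and the F-test over the 3 times gave an adjusted p = 0.000277. KIF13A moved the other way, by 1.23 (SE 0.14), with an adjusted p = 0.00108 in the F-test.

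Promoters of the mitotic kinesins are shown because these genes moved together. Many genes of G2 and mitosis carry a CHR, often with CCAAT boxes bound by NF-Y upstream. The CHR is a short element bound by the DREAM complex, which holds these genes silent outside those phases. Sequences are RefSeq promoters of GRCh38.p14, and 30 of the 37 kinesin genes were in that table. The hexamers TTTGAA and TTCGAA (CHR-type), CCAAT, and the E2F-type octamer TTTGGCGC were searched on both strands from 250 bases before to 50 after the first-listed start of each gene. Below, 80 bases before the start and the first 10 of the transcript are given 5′ to 3′ on the strand of the gene, with CHR-type hexamers and CCAAT boxes of either strand in capitals.

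KIF11 (chr10:92593050-92593139, plus strand): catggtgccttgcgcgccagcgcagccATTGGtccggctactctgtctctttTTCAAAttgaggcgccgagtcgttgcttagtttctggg
KIF14 (chr1:200620742-200620831, minus strand): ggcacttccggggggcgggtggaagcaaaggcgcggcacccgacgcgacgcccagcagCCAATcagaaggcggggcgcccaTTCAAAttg
KIF15 (chr3:44761714-44761803, plus strand): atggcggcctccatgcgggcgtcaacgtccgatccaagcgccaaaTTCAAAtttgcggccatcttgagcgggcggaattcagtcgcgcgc
KIF18A (chr11:28108147-28108236, minus strand): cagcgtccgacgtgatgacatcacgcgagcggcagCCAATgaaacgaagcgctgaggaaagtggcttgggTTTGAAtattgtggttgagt
KIF18B (chr17:44947764-44947853, minus strand): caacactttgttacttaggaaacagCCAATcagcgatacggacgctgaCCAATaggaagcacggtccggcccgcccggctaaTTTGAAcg
KIF22 (chr16:29790671-29790760, plus strand): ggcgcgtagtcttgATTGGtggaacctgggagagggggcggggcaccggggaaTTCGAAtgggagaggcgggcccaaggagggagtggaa
KIFC1 (chr6:33391743-33391832, plus strand): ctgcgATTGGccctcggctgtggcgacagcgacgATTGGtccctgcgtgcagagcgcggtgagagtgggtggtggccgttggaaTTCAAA
KIF2C (chr1:44739757-44739846, plus strand): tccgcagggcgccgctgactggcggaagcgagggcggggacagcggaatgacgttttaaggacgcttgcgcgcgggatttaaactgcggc
KIF5B (chr10:32056416-32056505, minus strand): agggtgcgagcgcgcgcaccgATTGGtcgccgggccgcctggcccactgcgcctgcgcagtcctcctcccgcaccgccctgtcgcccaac
KIF13A (chr6:17987626-17987715, minus strand): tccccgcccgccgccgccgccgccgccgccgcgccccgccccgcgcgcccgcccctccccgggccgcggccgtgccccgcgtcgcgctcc

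A CHR-type hexamer was found in 8 of the 9 mitotic kinesins that fell, in 1 of 11 transport kinesins with a promoter and in 1 of 9 other kinesins. Over all 27305 genes in the table the share was 16.6%, and among genes with a row of their own on this array it was 13.5%. The 8 matches all began within 100 bases before the start or in the 50 after it, where 7.43% of all genes had one. In KIF11 and KIF22 the match began 28 and 27 bases before the start, in KIF15 35 and in KIF18A 10. In KIF14, KIF18B and KIFC1 it lay within the first bases of the transcript. KIF20B, whose stretch is not shown, held adjoining matches that began 24 and 30 bases after the start.

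CCAAT boxes were also found in 7 of those 9 genes, beside 35.7% of all genes, and all 7 held both motifs, as 6.58% of all genes did. KIF15 had no CCAAT box but held the E2F-type octamer, which 0.659% of all genes had, directly before its hexamer. KIF2C, which fell by 1.42 on the log2 scale, and KIF2B, which was not called, held no searched hexamer. No form of the CHR other than TTTGAA and TTCGAA was searched, so these genes are not shown to lack one. The transport kinesin with a hexamer was KIF5B, 140 bases before the start and outside the stretch shown. Among the other kinesins it was KIF24, which fell at 24 h, with 3 CCAAT boxes and a hexamer 1 base past the start. These letters are a description, and binding was not measured here. The map of motif matches shows these positions.

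**Figure D2:**
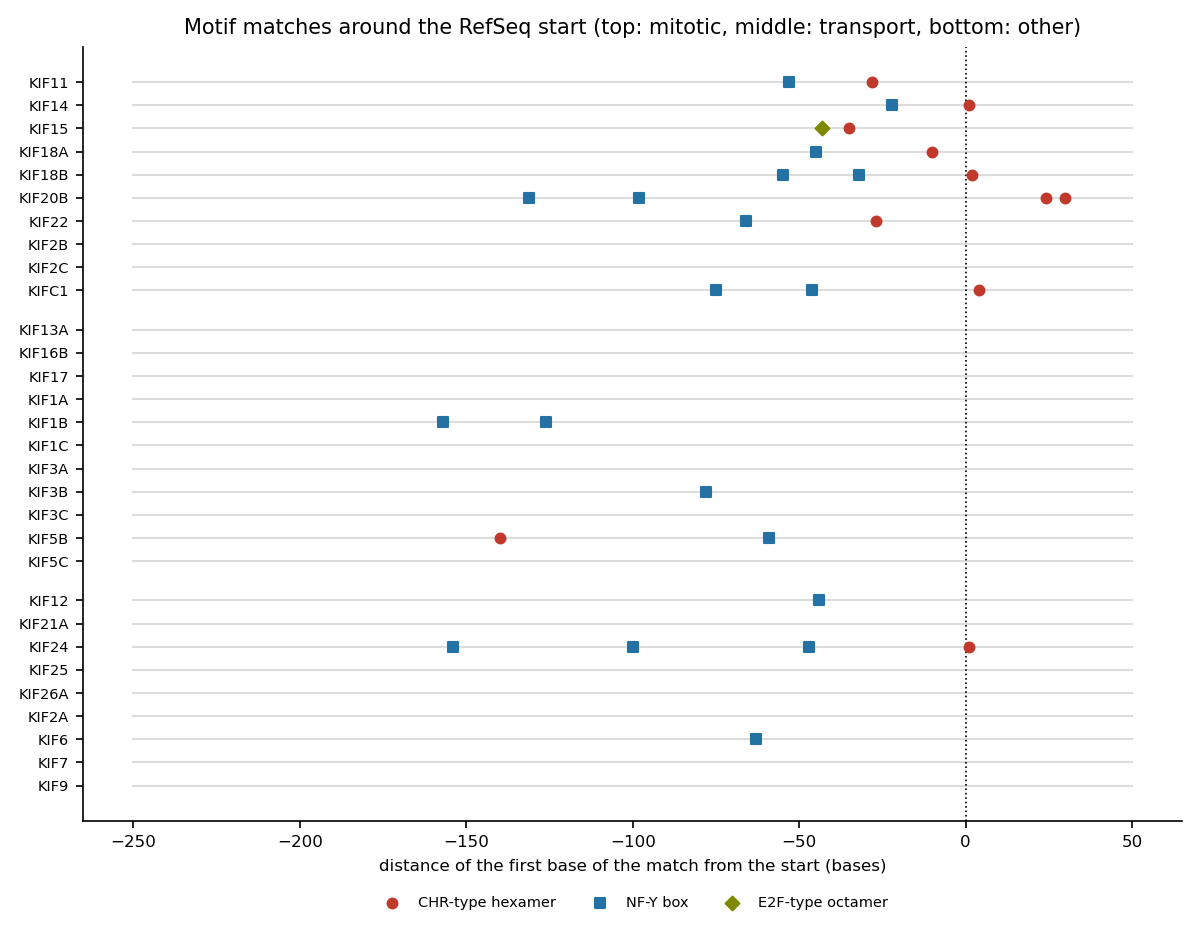
Position of motif matches around the RefSeq start for the 30 kinesin genes in the promoter table, 1 line per gene. The horizontal axis gives the distance of the first base of a match from the start in bases, with negative values before it. Red circles are CHR-type hexamers, blue squares NF-Y (CCAAT) boxes and the olive diamond an E2F-type octamer. Red circles near the start lie on 8 mitotic lines and on KIF24.

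Transport kinesins did not share a direction. At 24 h, 2 of 13 fell, 3 rose and 8 did not pass, with a median of −0.09. The 5 of 13 called are close to the 31.6% called among all genes, of which 12.5% rose, so these counts say little about transport kinesins as a set. At 2 and 6 h the medians were −0.10 and −0.08.

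KIF13A, a kinesin-3 motor that carries endosomal cargo to maturing melanosomes, rose most. Its levels were 8.98, 9.04 and 9.16 with DMSO, 8.70, 9.26 and 10.27 with PD184352 and 8.87, 9.28 and 10.13 with PLX4720. Both inhibitor arrays at 24 h were above all 7 others, and the change was 1.04 (SE 0.10, adjusted p = 4.07e-05), or 2.06-fold. At 6 h it was 0.22 (adjusted p = 0.329), and a second, dim row of the gene read 5.47 with DMSO, 5.85 with PD184352 and 5.65 with PLX4720 at 24 h. The paralog KIF13B, whose motor moves membrane cargo such as signalling receptors, read 8.45, 8.53 and 8.66 with DMSO, 8.31, 8.46 and 8.96 with PD184352 and 8.44, 8.33 and 8.94 with PLX4720. It rose by 0.30 (SE 0.10, adjusted p = 0.0384) at 24 h, a call that was lost without either 24 h inhibitor array (adjusted p = 0.0997 without PD184352 and 0.0604 without PLX4720).

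Within kinesin-1, the conventional motor for vesicles and mitochondria, the members went apart. KIF5B, its ubiquitous heavy chain, read 10.94, 11.05 and 10.998 with DMSO, 10.85, 10.92 and 10.51 with PD184352 and 10.76, 10.81 and 10.36 with PLX4720. It fell by 0.56 (SE 0.10, adjusted p = 0.00165) at 24 h, with both inhibitor arrays below all others. KIF5A, the heavy chain known from neurons, was at 6.93, 7.10 and 7.07 with DMSO, 6.93, 7.22 and 7.56 with PD184352 and 7.10, 7.18 and 7.45 with PLX4720. It rose by 0.44 (SE 0.10, adjusted p = 0.00685), and its second row read 6.84 with DMSO, 7.45 with PD184352 and 7.35 with PLX4720 at 24 h. On the DMSO arrays KIF5A read below the fibroblast gene COL1A1 (7.38 to 7.49), and whether its level there stood above background was not tested. KIF5C, the other neuronal chain, was too dim to be tested, at 5.42 to 5.58 on all arrays.

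KIF16B, an early endosome motor, was at 8.24, 8.40 and 8.46 with DMSO, 8.07, 8.07 and 8.15 with PD184352 and 8.23, 7.81 and 7.93 with PLX4720. It was lower already at 6 h (−0.46, SE 0.13, adjusted p = 0.103) and fell at 24 h by 0.42 (SE 0.13, adjusted p = 0.0328). Without the PLX4720 array of 24 h the late call was lost (−0.31, adjusted p = 0.0757), and without either 24 h inhibitor array the change at 6 h was called (adjusted p = 0.00967). KIFC3, a minus-end motor, came closest to the threshold at 6 h (−0.36, SE 0.09, adjusted p = 0.055) and stood at −0.16 (adjusted p = 0.218) at 24 h. It was called at 6 h without either 24 h inhibitor array (adjusted p = 0.0324), and at 24 h against the DMSO array of 6 h (−0.37, adjusted p = 0.00691).

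The heterotrimeric kinesin-2 motor, which serves cilia and vesicle transport, has KIF3A with KIF3B or KIF3C as its motor chains. KIF3A read 8.66, 8.98 and 9.21 with DMSO, 8.45, 8.77 and 9.004 with PD184352 and 8.57, 8.73 and 8.93 with PLX4720, and was higher at each later time with every treatment. Its change at 24 h was −0.24 (SE 0.09, adjusted p = 0.0688), while a dimmer row of the same gene read 7.88 with DMSO, 7.23 with PD184352 and 6.95 with PLX4720. With the mean of both rows KIF3A was called lower, at −0.38 (adjusted p = 0.00837). KIF3B was at −0.25 (SE 0.11, adjusted p = 0.0995), called only against other DMSO controls (−0.45 against that of 6 h and −0.33 against the mean of 3), and KIF3C at −0.09 (SE 0.11, adjusted p = 0.649).

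Kinesin-3 motors of the KIF1 group carry synaptic vesicle precursors, mitochondria and other membrane cargo. KIF1B was at 0.14 (SE 0.10, adjusted p = 0.363) at 24 h, KIF1A at −0.02 (SE 0.10, adjusted p = 0.933) and KIF1C at −0.26 (SE 0.10, adjusted p = 0.0708). For KIF1C the DMSO array of 24 h itself differed from that of 6 h by −0.30, and against the mean of the 3 DMSO arrays it was called lower (−0.45, adjusted p = 0.00405). KIF17, a homodimeric kinesin-2, was at 0.05 (SE 0.10, adjusted p = 0.771). Mean levels of KIF1A (7.35) and KIF17 (7.71) were close to the levels of the fibroblast gene COL1A1 and the keratinocyte gene KRT14. Whether such levels stand above background was not tested. The plot of transport kinesins by time shows KIF13A as the panel with a rise of over 1 log2 unit.

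**Figure D3:**
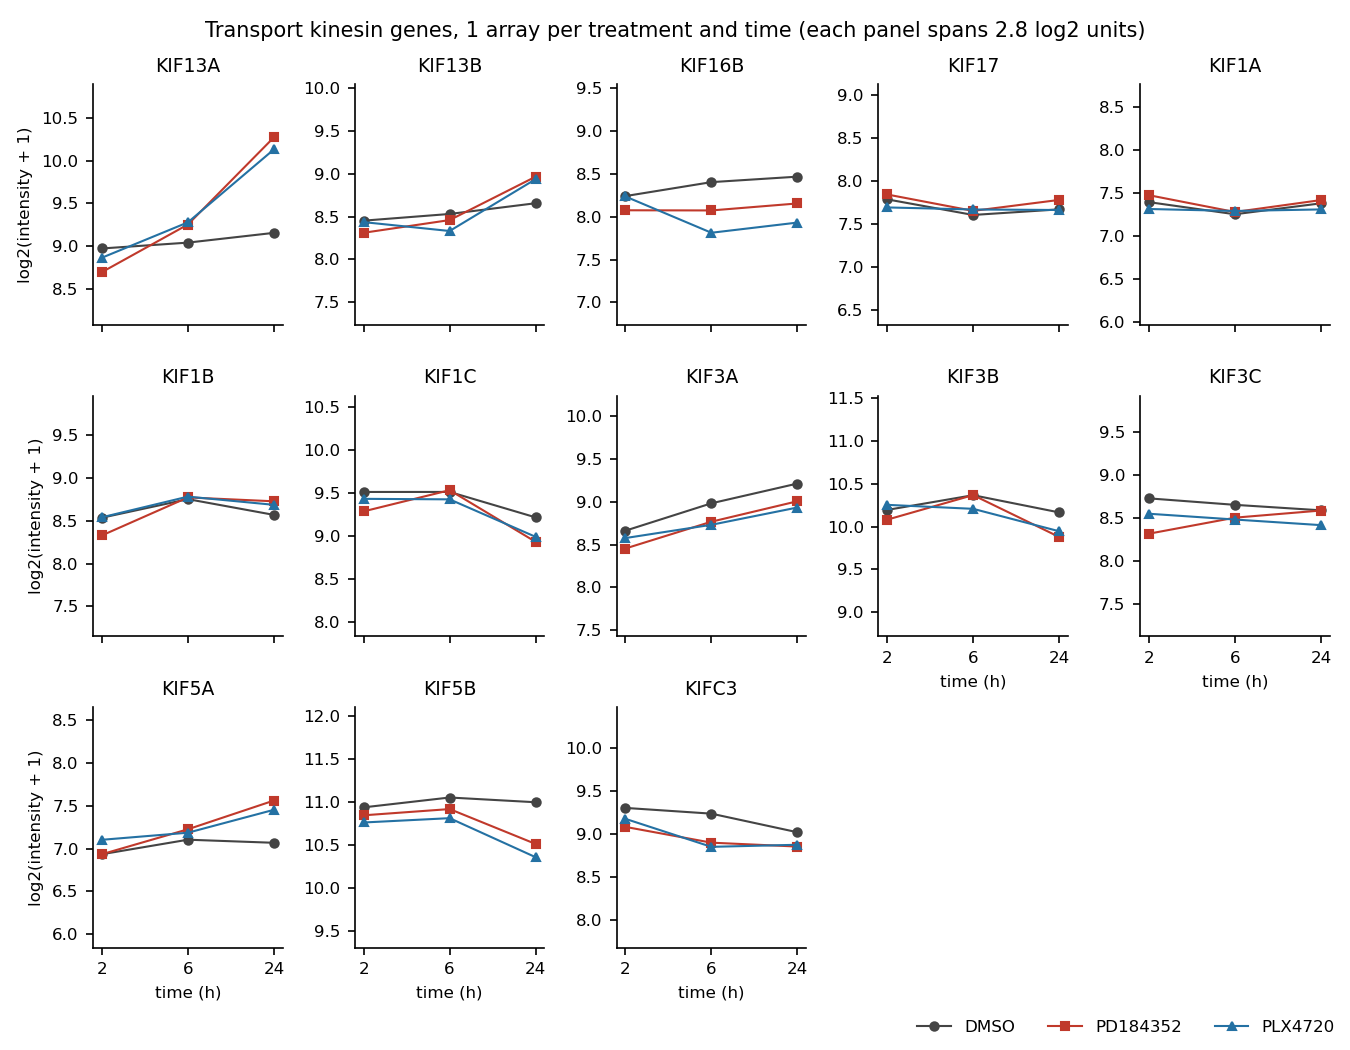
Level of the 13 tested transport kinesins as log2(intensity + 1), vertical axis, at 2, 6 and 24 h, spaced evenly on the horizontal axis. Each point is 1 array, with DMSO in grey circles, PD184352 in red squares and PLX4720 in blue triangles. At 24 h both inhibitor points lie above the other 7 for KIF13A, KIF13B and KIF5A, and below them for KIF1C, KIF3B and KIF5B.

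Of the 10 tested kinesins with other roles, 3 fell at 24 h, none rose, and the median was 0.01, beside 19.2% of all genes that fell. KIF21A, which pauses microtubule growth at the cell cortex, read 7.77, 7.87 and 8.004 with DMSO, 7.66, 8.12 and 7.11 with PD184352 and 7.90, 7.85 and 7.05 with PLX4720. Its change was −0.92 (SE 0.13, adjusted p = 0.000398), with no such difference at 6 h (0.11). KIF2A, a depolymerase that works at spindle poles and in neurons, was at 8.25, 8.46 and 8.49 with DMSO, 8.10, 8.14 and 7.78 with PD184352 and 8.25, 8.17 and 7.79 with PLX4720. It fell by 0.70 (SE 0.09, adjusted p = 0.000279) at 24 h and was at −0.30 (adjusted p = 0.129) at 6 h. KIF24, a depolymerase that restrains cilium formation at the centriole, read 7.26, 7.26 and 7.08 with DMSO, 7.07, 7.35 and 6.49 with PD184352 and 7.19, 7.21 and 6.64 with PLX4720. At −0.51 (SE 0.10, adjusted p = 0.00377) it was the called gene of this set with the smallest change.

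The remaining 7 of this set (KIF12, KIF19, KIF21B, KIF25, KIF26A, KIF26B and KIF7) lay between −0.10 and 0.21 at 24 h. KIF7, a regulator of hedgehog signalling in cilia, was at 0.15 (SE 0.08, adjusted p = 0.209), and KIF26B had the upper value of that range (adjusted p = 0.153). KIF26B was called higher against the DMSO array of 6 h (0.30, adjusted p = 0.0391), and KIF7 with quantile normalization (0.23, adjusted p = 0.043). The 4 untested genes KIF27, KIF5C, KIF6 and KIF9 had mean levels of 3.67 to 5.59.

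**Figure D4:**
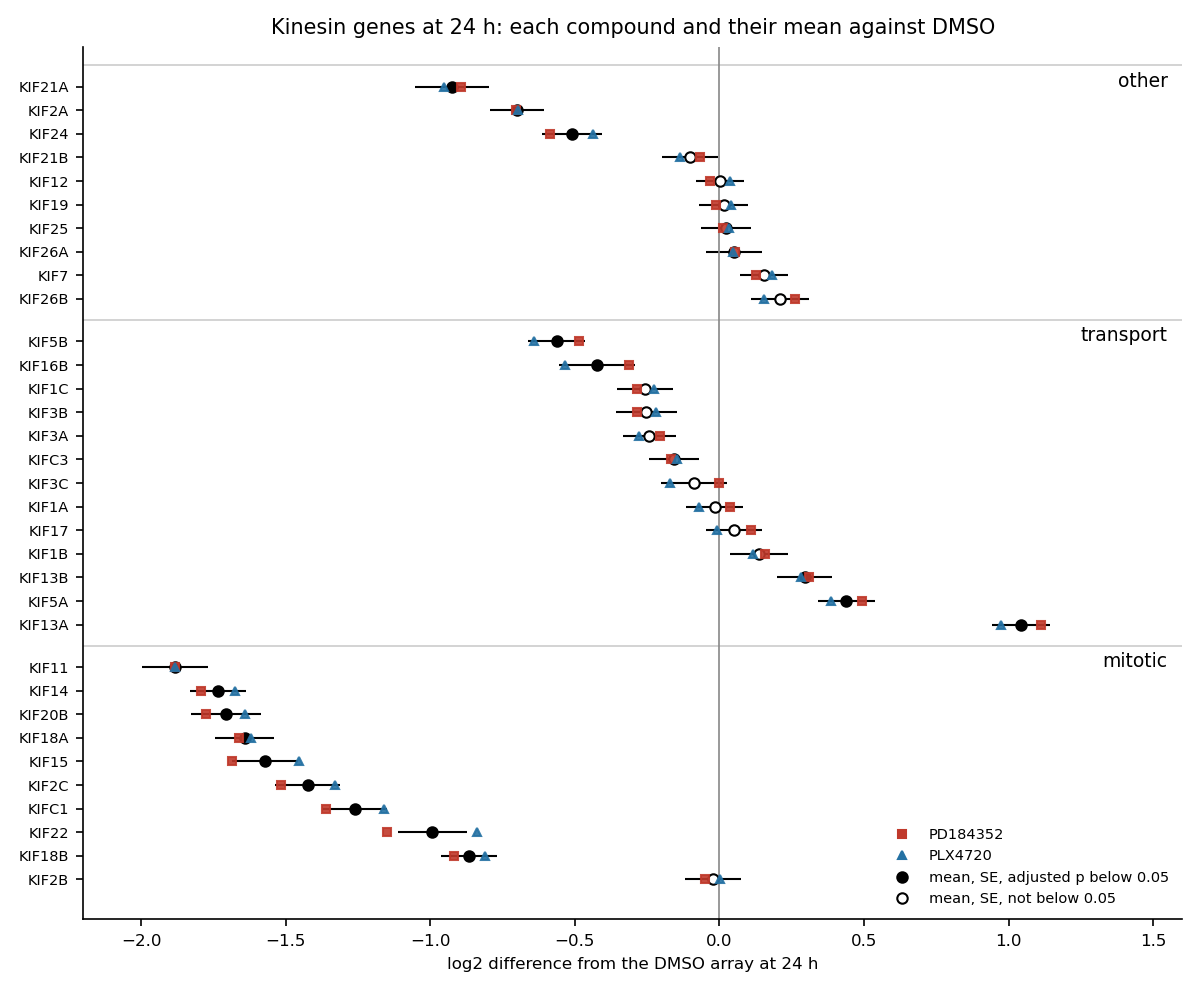
Difference from the DMSO array at 24 h for the 33 tested kinesins, grouped by role, on the log2 scale (horizontal axis). Red squares are PD184352, blue triangles PLX4720, and circles their mean with limma's SE, filled where the adjusted p was below 0.05. All filled mitotic circles lie at −0.87 or below, while filled transport circles lie on both sides of 0, from −0.56 to 1.04.

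PD184352 and PLX4720 were also compared with each other, as given and at different doses, over the 6 inhibitor arrays with time as a block. By limma 0 of 33 kinesins were called (0% of all genes), with 1 kinesin and 555 of all 12785 genes at an unadjusted p below 0.05. That kinesin was KIFC1, with a difference of −0.15, PD184352 minus PLX4720 (95% interval −0.29 to −0.01). For every kinesin tested the interval of the difference, taken as an average over the 3 times, lay within −0.29 and 0.29. It does not bound the difference at a single time. At 24 h, for example, KIF22 read 7.98 with PD184352 and 8.29 with PLX4720. At 24 h the level was lower with PD184352 than with PLX4720 for 9 of 10 mitotic kinesins (median difference −0.13), 3 of 13 transport kinesins and 50.2% of all genes. At 2 h it was lower for 9 of 10 mitotic kinesins (median difference −0.09), 10 of 13 transport kinesins and 70.1% of all genes. At 6 h that held for 4 of 10 mitotic kinesins, 4 of 13 transport kinesins and 42% of all genes.

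Genes whose products work with the mitotic kinesins fell in the same arrays. Of 14 tested partner genes 13 fell and 1 rose at 24 h, with a median of −1.18, where 19.2% of all genes fell and 12.5% rose. The falls were led by the mitotic kinase CDK1 (−2.26, SE 0.13), the spindle pole kinase AURKA (−1.53, SE 0.09) and CENPE, the kinetochore kinesin (−1.29, SE 0.11). NUMA1, which anchors dynein at spindle poles, rose by 0.41 (SE 0.10, adjusted p = 0.0097).

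Cell cycle markers moved in the same arrays. All 10 markers of G2 and M phase fell at 24 h (median −1.34), where 19.2% of all genes fell and their median change was −0.01. MKI67 was at −1.59 (SE 0.09), BUB1 at −1.58 (SE 0.11) and TOP2A at −1.45 (SE 0.10). All 9 tested markers of S phase fell too (median −1.26), with CCNE2 at −1.83 (SE 0.12), CDC6 at −1.51 (SE 0.10) and MCM6 at −1.47 (SE 0.15). The summed intensity of the 10 G2 and M genes was 13900 to 16480 on the DMSO arrays, 13330 to 16460 on the inhibitor arrays of 2 and 6 h, and 5527 to 5996 on those of 24 h. For the 10 S phase genes, with PCNA too dim to test, these sums were 7179 to 7730, 7003 to 7701 and 2647 to 3297. No marker was at 0. Their part in the fall of the mitotic kinesins was not tested, and in bulk RNA fewer cells in G2 and mitosis and less RNA per such cell cannot be told apart.

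Most melanocyte markers were higher in the same arrays as KIF13A, and their part in its rise was not tested. Of 5 tested, 4 were called higher at 24 h and none lower, where 12.5% of all genes rose, with S100B at 0.84 (SE 0.09), MLANA at 0.67 (SE 0.10), SOX10 at 0.51 (SE 0.11) and PMEL at 0.44 (SE 0.11). For PMEL the DMSO array of 24 h was low (10.21), and the inhibitor arrays of that time (10.67 and 10.63) lay below the DMSO arrays of 2 and 6 h (11.12 and 10.96). For MLANA the DMSO array of 24 h was also the lowest of the DMSO arrays (6.25, beside 6.61 at 2 h and 6.66 at 6 h). The inhibitor arrays of 24 h read 6.92 and 6.91 for MLANA, little above PLX4720 at 2 h (6.85). The summed intensity of the 6 genes with a row was 3979 to 4311 on the DMSO arrays, 3850 to 4718 on the inhibitor arrays of 2 and 6 h, and 5352 to 5668 on those of 24 h. Summed fibroblast markers were at 412.2 to 439.3 with DMSO, 442.0 to 459.5 on the inhibitor arrays of 2 and 6 h and 446.3 to 451.1 on those of 24 h. Summed endothelial markers were at 327.3 to 365.6, 300.4 to 440.2 and 301.9 to 304.8.

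The partners of transport kinesins had no common direction. Of 14 cargo adaptors and light chains 4 rose and 2 fell (median 0.14), a share of called genes to be read beside the 31.6% called among all genes. TRAK1, which links kinesin-1 to mitochondria, rose by 1.39 (SE 0.13, adjusted p = 2.75e-05), more than any kinesin. PLEKHM2, which links kinesin-1 to lysosomes, rose by 0.51 (SE 0.10) the light chain KLC4 by 0.38 (SE 0.09) and FYCO1, an adaptor of late endosomes, by 0.34 (SE 0.09). The light chain KLC2 fell by 0.33 (SE 0.10) and BORCS5, part of the complex that puts lysosomes on kinesins, by 0.28 (SE 0.09).

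Dynein, the motor that runs opposite to most kinesins, had members called in both directions. Of 19 subunits and regulators 4 fell and 3 rose (median −0.11), near the 31.6% called among all genes, with the light chain DYNLT3 at −1.09 (SE 0.09), the dynactin subunit DCTN1 at 0.58 (SE 0.10) and the intermediate chain DYNC1I1 at 0.51 (SE 0.09). The falls also included the adaptor BICD1 (−0.50, SE 0.10), the light intermediate chain DYNC1LI1 (−0.45, SE 0.09) and the light chain DYNLL1 (−0.43, SE 0.11). The third rise was in DYNC1LI2 (0.31, SE 0.09).

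Among 14 tubulins and microtubule-binding proteins 5 fell and 4 rose (median 0.23), where 19.2% of all genes fell and 12.5% rose. TUBG1, the nucleating tubulin, fell by 0.60 (SE 0.10) and the destabiliser STMN1 by 0.49 (SE 0.08), while MAP1B rose by 0.47 (SE 0.12). The other falls were TUBB6 (−0.40, SE 0.09), TUBB (−0.35, SE 0.09) and the plus-end protein MAPRE1 (−0.32, SE 0.09). The other rises were MAPRE3 (0.43, SE 0.11), TUBB2B (0.36, SE 0.08) and CLASP1 (0.28, SE 0.10). The plot of kinesins beside their partners shows every gene of the mitotic and cell cycle lists below 0 other than NUMA1, and the transport lists across it.

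**Figure D5:**
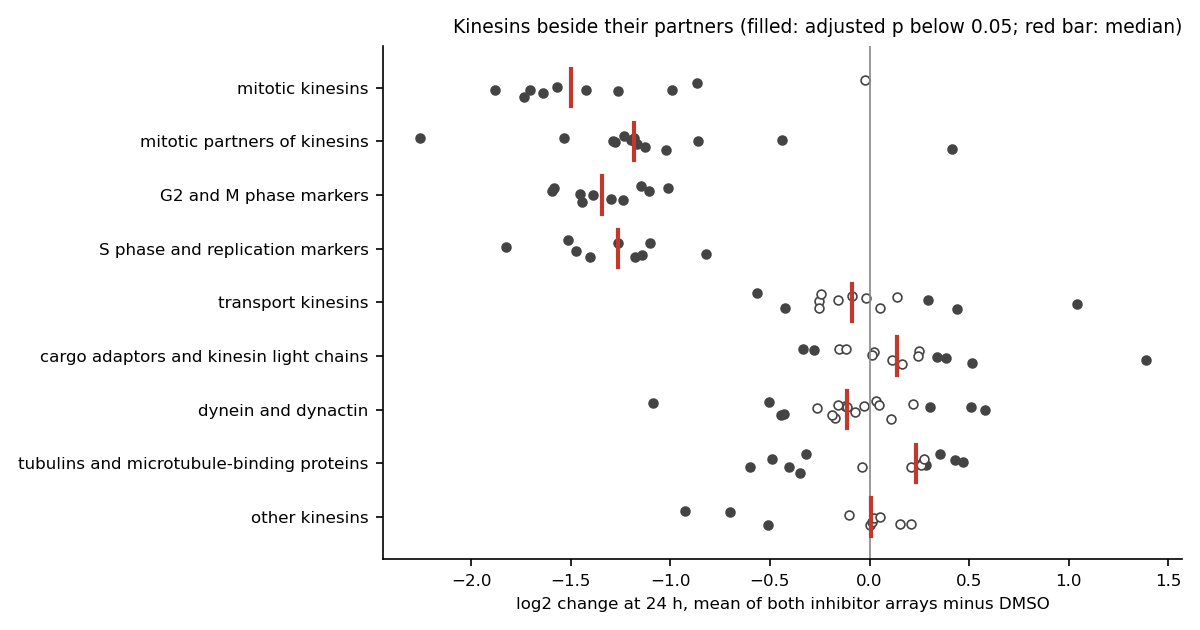
Log2 change at 24 h, mean of both inhibitor arrays minus DMSO (horizontal axis), for the kinesin groups and the lists of partner and marker genes. Each point is a gene, filled where the adjusted p was below 0.05, and the red bar is the median of the list. Medians of the 4 upper lists lie between −1.50 and −1.18, and those of the other 5 between −0.11 and 0.23.

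CHR-type hexamers were also counted in the partner lists. They were in 8 of 11 mitotic partners, 7 of 9 markers of G2 and M phase, 1 of 8 markers of S phase and 0 of 19 dynein and dynactin genes with a promoter in the table. The mitotic kinesins, their partners and the G2 and M markers thus held the hexamer at shares of 80%, 72.7% and 77.8%, beside 16.6% of all genes. Of the S phase markers 12.5% held it. CCAAT boxes were in 75% of the S phase markers, 100% of the G2 and M markers and 81.8% of the mitotic partners, beside 35.7% of all genes. The part of either motif in the changes at 24 h was not tested.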

How the data were processed

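RNA of A375P cells was measured on exon arrays summarised per transcript cluster, with 9 samples in 9 groups of 1. The authors deposited linear-scale intensities. RMA, limma and R 2.8.0 appear in the submitters' processing notes without a role or order, and no genome build is named in the sources used here. The number of arrays limits the precision.

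From the deposited intensities log2(value + 1) was taken, with no further normalization. Of 35446 rows 19380 had 1 symbol in the platform annotation; the brightest row of each of 17047 genes was used, and the 25% with the lowest mean were left out, leaving 12785. Identifiers of all 37 kinesins matched the RefSeq table of GRCh38.p14, used for names only. No pair of arrays was identical (0 pairs).

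limma 3.58.1 in R 4.3.3 fitted the mean of both inhibitor arrays against DMSO at each time (residual degrees of freedom 3), an F-test of the change between times, and PD184352 against PLX4720 with time as a block (residual degrees of freedom 2). Benjamini-Hochberg adjustment ran over all genes tested, with calls at an adjusted p below 0.05. The fits were tested on simulated data. Members and lists were chosen with earlier results of these data known, so no p is adjusted over a list and none is given for one. Named were all tested mitotic and transport kinesins, called kinesins of other roles, and of each partner list the 3 called genes with the largest change and those called in the opposite direction; the other called genes of the dynein and tubulin lists, FYCO1, PMEL, KIF7, KIF26B, DUSP6, SPRY2, SPRY4 and the marker levels were added after their values were seen. Alternatives were the filter, quantile normalization, the pseudocount, the row rule, array weights, moderated trend, other controls and leaving out each array.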

Additional observations from a re-analysis of the deposited data

Results flagged for a closer look

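For 12 kinesins the change with inhibitor differed between the times by limma's F-test. The 24 h change minus the 2 h change was −1.77 for KIF11, −1.72 for KIF20B, −1.54 for KIF18A and KIF15, −1.47 for KIF14, −1.38 for KIF2C and −1.19 for KIFC1. It was −0.95 for KIF22, −0.94 for KIF21A, −0.66 for KIF18B and −0.62 for KIF2A. KIF13A, at 1.23, was the member of this group that moved upward.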

How the results depend on the processing

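At 24 h 17 of 33 kinesins were called, beside 31.6% of all genes, and over 18 alternatives the count was 15 to 21. It was highest with the mean of the 3 DMSO arrays as the control, where the count over all genes was also highest. With no filter 37 kinesins were tested, and with the stricter filter fewer than 33. In each alternative 9 mitotic kinesins fell, also with the DMSO 6 h array or the mean of the 3 DMSO arrays as the control. The count of rising transport kinesins was 2 to 3 and that of falling ones 1 to 5. The 12 kinesins whose change differed between times were 12 to 13 over 15 alternatives, the 13th being KIF24 without the PLX4720 array of 24 h (adjusted p = 0.0212) or with a trend (adjusted p = 0.048), KIF13B with quantile normalization, KIF5A with the mean of its rows, or, with no filter, the dim gene KIF27 (adjusted p = 0.0322); without the DMSO array of 2 h or 24 h that contrast could not be made. At 2 h the count was 0 in all 17. Leaving out a DMSO array of another time cannot alter the change from DMSO at a given time, because a single DMSO array adds no spread. Those alternatives repeat the main fit at 2, 6 and 24 h. At 6 h the count of 0 became 1 with array weights, with the mean of all rows or with a pseudocount of 16, and 2 with the stricter filter, and it ranged from 0 to 2 when each array was left out, with 2 without either 24 h inhibitor array; the genes were KIFC3 and KIF16B. The comparison of the compounds stayed at 0 kinesins in 10 alternatives. At 24 h KIF13B lost its call with no filter (adjusted p = 0.0615), as did KIF16B (adjusted p = 0.0645), which also lost it against the DMSO 6 h array (adjusted p = 0.0564). No paired analysis was possible because each treatment and time had 1 array and so no replicate numbers to pair; the compounds were compared with time as the block. The DMSO array of 24 h is the control of all changes at that time and has no replicate, and levels of dim genes such as KIF2B limit what can be seen of them.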
